A study of Mus musculus with 16 samples.

Results

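Colon tumours of mice carrying both an inducible LIN28B and an Apcmin allele were compared with the colon mucosa of wt mice. The comparison rests on 5 of the 16 samples of the series: LIN28B/Apcmin colon tumour replicates 1, 2 and 3 (genotype iLIN28B; Apcmin/+, histology adenoma) and wt colon mucosa replicates 1 and 2 (genotype wt, histology normal). The samples were chosen by their labels and by array quality, not by the level of any gene. All 5 came from mice of 3 months on a mixed B6/129/Balbc/CD1 background, and all these mice, wt included, received doxycycline from 6 to 7 weeks of age. Apcmin colon tumours (genotype Apcmin/+, adenoma, n = 2, same age, background and doxycycline) are used below only to show where the double mutant tumours resemble or differ from tumours without LIN28B.

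The 3 LIN28B/Apcmin tumours share 1 title number, whereas the wt mucosae carry 2 numbers. If a number stands for an animal, the tumours come from 1 mouse, and its other features cannot be told apart from its genotype. In that case the p-values do not measure the spread between mice of this genotype. They rest on 1 spread per gene, pooled within the 7 groups of the fit over 14 arrays. The promoter that drives LIN28B and the cells that express it are not given in the sources used here. Each sample was measured on 1 Illumina bead array, on which 48.3% to 55.7% of probes were detected in the tumours and 55% to 56.5% in the mucosae. LIN28B/Apcmin colon tumour replicate 4, with 12% of probes detected, was left out, and signals under 25 were set to missing, which affected 0, 9 and 1985 probes of tumour replicates 1, 2 and 3. The Pearson correlation of normalised log2 intensities over genes was 0.965 to 0.976 between the tumours and 0.992 between the mucosae, against 0.889 to 0.905 between a tumour and a mucosa.

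LIN28B binds the precursors of let-7 microRNAs and keeps them from being processed, and Apc is the scaffold of the complex that marks beta-catenin for destruction. Loss of Apc in the gut epithelium leaves beta-catenin free to switch on Wnt target genes with TCF and LEF factors, which keeps crypt cells in a progenitor state. The colon mucosa is normally covered by absorptive colonocytes and mucus-secreting goblet cells, with rarer hormone-secreting enteroendocrine cells among them.

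Of 11230 genes tested with limma, 3128 (27.9%) passed an adjusted p of 0.05: 1534 (13.7%) rose in LIN28B/Apcmin tumours and 1594 (14.2%) fell. Levels below are normalised log2 intensities of 1 probe a gene, changes are log2 differences of group means (tumour minus wt) ± limma standard error, and p-values are adjusted over all 11230 genes. The median difference of all genes was 0.04. Apcmin tumours, set against the same wt arrays, changed in many of the same gene lists. Their rises and falls were 16 and 1 of 27 myeloid, 10 and 0 of 23 Wnt target and 11 and 0 of 24 proliferation genes. They were 0 and 13 of 17 smooth muscle and 0 and 17 of 25 drug and retinoid metabolism genes, but 0 and 2 of 26 interferon response genes. Over all genes 6.62% rose and 7.9% fell in Apcmin tumours. The count was 1356 without wt replicate 1 and 1406 without wt replicate 2. With the tumours averaged into 1 sample because of their shared number, it was 1489. With median scaling in place of quantile normalisation the split moved to 1004 higher and 1819 lower. Of the calls, 260 rest on tumour replicates 1 and 2 alone, because the value of replicate 3 was lost.

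**Figure D1:**
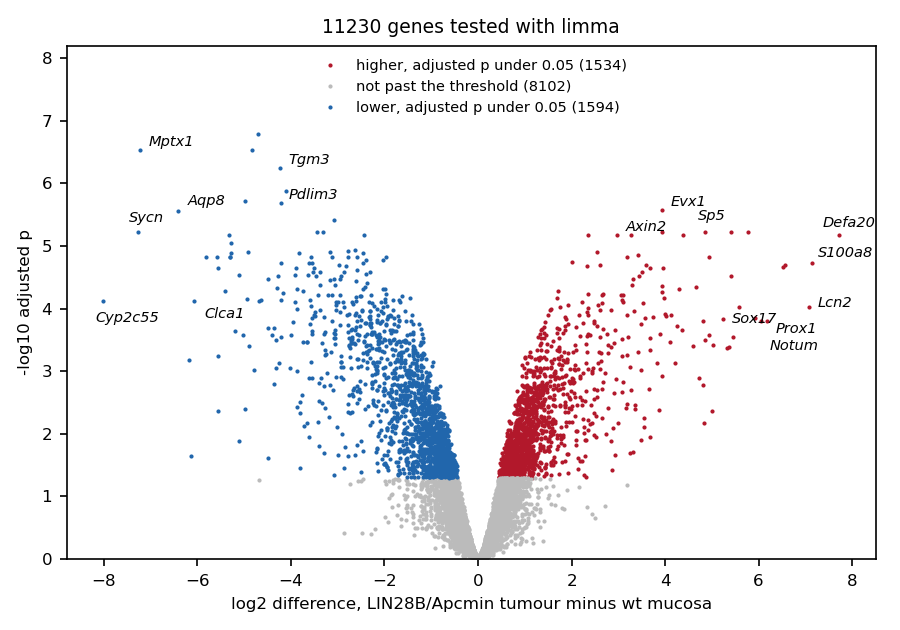
Log2 difference of LIN28B/Apcmin tumour minus wt mucosa (horizontal axis) against -log10 of the limma adjusted p (vertical axis), 1 point for each of 11230 genes. The 1534 genes called higher and the 1594 called lower are coloured, and Defa20 at 7.72 and Cyp2c55 at -8.01 lie furthest to the right and to the left among those named.

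Secreted Wnt inhibitors and Wnt-driven transcription factors were among the largest rises. Notum, an enzyme that removes the lipid from Wnt proteins, read 11.12, 10.82 and 10.51 in LIN28B/Apcmin tumours, against 5.05 and 4.49 in wt mucosa, a 66.1-fold difference (6.05 ± 0.70, adjusted p = 0.000158). Prox1, a homeobox transcription factor, read 10.80, 10.64 and 11.22 in tumours and 4.96 and 4.45 in wt (6.18 ± 0.71, adjusted p = 0.000156), and 2.56 by a second probe. Sp5, a zinc finger factor of the Wnt response, read 10.31, 9.95 and 10.75 against 4.80 and 5.04 in wt (5.41 ± 0.34, adjusted p = 6.03e-06). For Notum, Prox1 and Sp5 every tumour lay above both wt mucosae, as it did for 29.8% of the 10263 genes with values on all 5 arrays (26.2% lay below both), and Notum and Prox1 were detected on 1 of the 2 wt arrays. The extracellular Wnt antagonists Wif1 and Apcdd1 were 44.1-fold and 48-fold higher, with Apcdd1 spread from 9.82 to 12.11 over the tumours. Axin2, the feedback scaffold of the destruction complex, differed less in size but varied little, with 11.95, 11.65 and 11.71 in tumours against 8.59 and 8.99 in wt (2.98 ± 0.20, adjusted p = 6.67e-06). Apcmin tumours were also high in Notum (10.37 and 10.01), Prox1 (9.91 and 9.58) and Sp5 (9.67 and 9.27).

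Of 28 listed Wnt target genes 23 were tested, of which 16 rose and 0 fell, with a list median of 1.55 against 0.04 for all genes. The share called higher over all genes was 13.7%. The risers numbered 9 without wt replicate 1 and 11 without wt replicate 2. Rnf43, a ligase that removes Wnt receptors, rose by 2.08 ± 0.28 (adjusted p = 0.000375), and Nkd1, an inhibitor of Dishevelled, by 2.18 ± 0.33 over tumour replicates 1 and 2 (adjusted p = 0.00118). The signal of Nkd1 on the remaining tumour was under 25 and set to missing, and its call was lost with such signals kept. Myc, the growth-promoting transcription factor, read 6.22, 6.25 and 5.77 in tumours against 4.86 and 4.95 in wt (1.17 ± 0.25, adjusted p = 0.00618). Ccnd1, which encodes cyclin D1, was 2.92-fold higher (adjusted p = 0.0103). Without wt replicate 1, neither Myc nor Ccnd1 passed (adjusted p = 0.0587 and 0.0941), while Notum, Prox1, Sp5, Wif1, Apcdd1 and Rnf43 passed with any 1 of the 5 arrays left out. Apc itself differed by 0.42 ± 0.26 (adjusted p = 0.264), with 6.77, 6.81 and 6.70 in tumours and 6.43 and 6.26 in wt. The Apcmin allele is a point mutation, so the level of its transcript is no check of the genotype.

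TCF and LEF factors bind a short core motif, which was looked for from 250 bases before to 50 bases after the start of each gene in RefSeq (build GRCm38.p6). A window of this kind was at hand for 12 of the 23 tested Wnt target genes. The letters CTTTG followed by a pair of bases that are each A or T were found on either strand in any window of 3 of these 12 genes (Sp5, Tnfrsf19 and Lef1). Of all 32851 windows 16.9% held them, a share by window and not by gene, so it is not the same measure. The window of Sp5, shown because its gene is one of the Wnt rises named above, lies at chr2:70474673-70474972 on the plus strand and holds 2 matches, in capitals.
Sp5 promoter: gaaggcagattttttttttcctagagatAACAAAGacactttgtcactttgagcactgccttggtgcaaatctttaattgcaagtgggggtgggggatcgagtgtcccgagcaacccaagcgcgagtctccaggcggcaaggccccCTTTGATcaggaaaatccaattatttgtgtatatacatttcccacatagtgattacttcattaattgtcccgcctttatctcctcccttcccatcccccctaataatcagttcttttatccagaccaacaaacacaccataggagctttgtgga
A match is a description of the letters, and binding was not measured here.

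Of 17 tested genes of crypt stem and progenitor cells 8 rose and 2 fell (13.7% and 14.2% of all genes), with a median of 0.51. Among these, Ascl2, Cd44, Lgr5, Rnf43, Slc12a2, Sox9, Tnfrsf19 and Znrf3 are also counted as Wnt targets above, so the 2 lists are not separate results. Mex3a, an RNA-binding protein of slowly cycling crypt cells, read 8.22, 8.75 and 8.50 in tumours against 4.96 and 5.19 in wt (3.42 ± 0.26, adjusted p = 1.41e-05), though a second probe gave 0.64. Lgr5, the R-spondin receptor that marks crypt base stem cells, read 7.56, 6.95 and 8.14 in LIN28B/Apcmin tumours, 9.28 and 9.59 in Apcmin tumours and 5.93 and 6.07 in wt mucosa. It passed against wt (1.55 ± 0.47, adjusted p = 0.0317), a call that was lost in 4 of the 5 fits with 1 array left out (adjusted p up to 0.158). The 3 LIN28B/Apcmin tumours all lay below both Apcmin tumours in Lgr5, although that difference did not pass (-1.89, adjusted p = 0.0902). Ascl2, a Wnt-driven stem cell factor, was 3.08-fold higher than in wt (adjusted p = 0.00902, but 0.0721 without 1 wt array). The stem cell counts were 4 and 0 without wt replicate 1, 3 and 0 without wt replicate 2, and 5 and 2 without tumour replicate 1.

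Single endodermal and gut patterning factors changed strongly. Sox17, an endoderm and endothelial transcription factor, read 10.22, 10 and 9.90 in tumours against 5.07 and 4.52 in wt, a 37.8-fold difference (5.24 ± 0.59, adjusted p = 0.000145). Of 16 tested endothelial genes, Sox17 among them, 3 rose and 1 fell (median 0.23), against 13.7% and 14.2% of all genes, and 1 rose and 0 fell without wt replicate 2. Cdh5, which encodes VE-cadherin, rose by 1.32 ± 0.29 (adjusted p = 0.0064, but 0.0671 without wt replicate 2). Evx1, a homeobox factor of the posterior embryo, read 10.88, 10.38 and 10.49 against 6.57 and 6.72 in wt (3.94 ± 0.22, adjusted p = 2.67e-06). The intestinal identity factor Cdx2 fell 6.03-fold, with 9.95, 7.86 and 8.17 in tumours against 10.94 and 11.56 in wt (adjusted p = 0.00317). Klf4, a factor of differentiating surface cells, fell 6.06-fold (adjusted p = 3.67e-05), and Cdx1 and Hnf4a, both factors of the intestinal epithelium, fell by 1.54 and 1.13, the call of Hnf4a being lost without wt replicate 2 (adjusted p = 0.0607) and those of Cdx1 and Hnf4a with the tumours averaged (0.0578 and 0.0649). Of 26 tested factors of gut position 5 rose and 6 fell (13.7% and 14.2% of all genes), with a median of -0.08. Without wt replicate 1, 1 rose and 4 fell, without wt replicate 2, 1 rose and 3 fell, and without tumour replicates 2 or 3 in turn the rises numbered 3 and 2. Hoxd10 varied between the tumours from 4.58 to 8.11, against 9.12 and 8.44 in wt. Its call (adjusted p = 0.0224) was lost in 4 of the 5 fits with 1 array left out, with an adjusted p of up to 0.151.

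**Figure D2:**
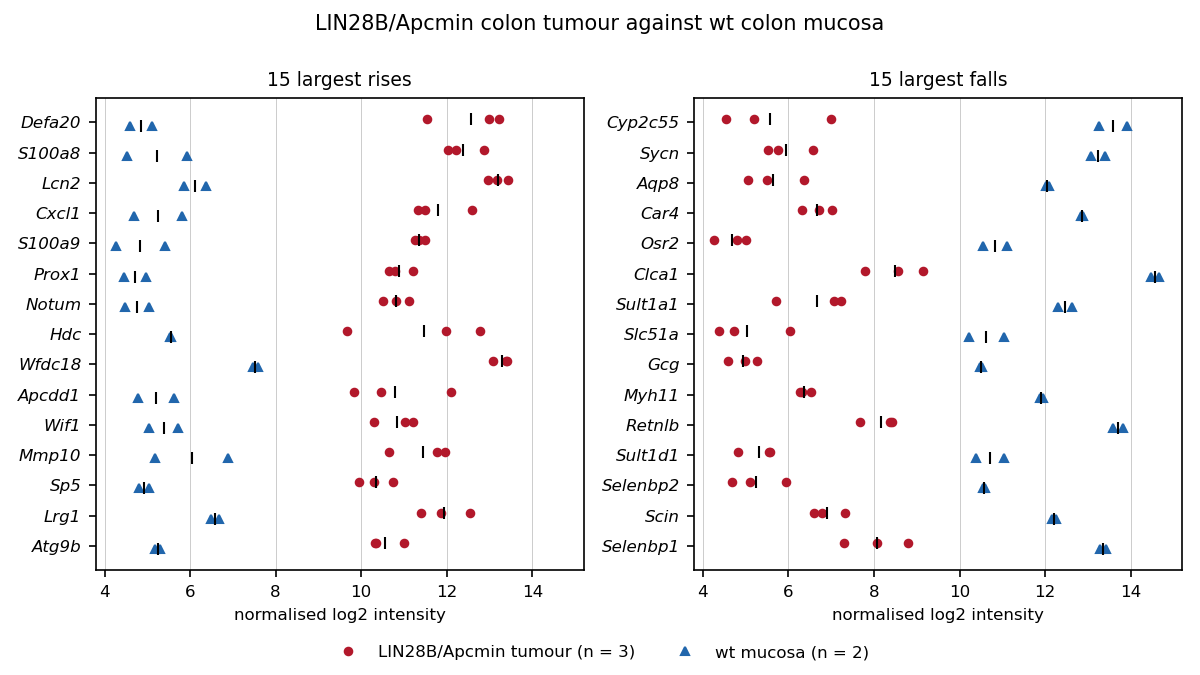
Normalised log2 intensity (horizontal axis) of the 15 largest rises and 15 largest falls among called genes with values on all 5 arrays. Circles are LIN28B/Apcmin tumours (n = 3), triangles wt mucosae (n = 2) and black ticks group means, and the groups do not overlap for any of the 30 genes, as the rule that chose them required.

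Expression of let-7 targets was examined because LIN28B acts on let-7. The mature microRNAs share a seed, bases 2 to 8, by which they pair with target transcripts. The seed GAGGUAG is common to 10 of 11 mature let-7 family sequences in RefSeq. Some members are shown with the seed in capitals, since it is the part that defines the family. No microRNA was measured here.
let-7a-5p: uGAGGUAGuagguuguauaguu
let-7b-5p: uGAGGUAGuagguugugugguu
let-7d-5p: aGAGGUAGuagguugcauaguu
let-7g-5p: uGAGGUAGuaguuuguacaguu
miR-98-5p: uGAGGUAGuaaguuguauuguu

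Of 21 tested let-7 targets 11 rose and 1 fell (13.7% and 14.2% of all genes), with a list median of 0.94. Myc and Ccnd1 are among the tested targets and are also counted in the Wnt target list. Arid3a, a DNA-binding regulator of chromatin, read 8.15, 8.91 and 8.65 in tumours against 6.75 and 6.61 in wt (1.90 ± 0.28, adjusted p = 0.000635). Cdc34, a ubiquitin-conjugating enzyme of the cell cycle, read 10.16, 10.14 and 9.89 against 8.51 and 8.75 in wt (1.43 ± 0.24, adjusted p = 0.00167). Plagl2, a zinc finger factor, rose by 1.18 ± 0.19 (adjusted p = 0.00105), and the repressor E2f6 by 1.05 ± 0.20 (adjusted p = 0.00302). For each of these 4 genes, taken from the called rises, all tumours lay above both wt mucosae, as for 29.8% of 10263 genes. With replicate 4 added among all 16 arrays, however, Plagl2 stood at -0.47. Apcmin tumours, which share the wt arrays in their own comparison, differed from wt by 0.88, 0.36, 0.55 and 0.04 in Arid3a, Cdc34, Plagl2 and E2f6, and none of these passed. Apcmin tumours had 2 let-7 targets higher than wt and 0 lower, against 6.62% and 7.9% of all genes. Between the tumour genotypes directly, 2 of the 21 targets were higher with LIN28B, E2f6 (1.00, adjusted p = 0.0385) and Arid3b (1.07, adjusted p = 0.0351), against 0.499% of all genes called higher there. Without LIN28B/Apcmin replicate 1 or either Apcmin array 0 of these passed, and without LIN28B/Apcmin replicate 2 or 3, 1 did. Against wt 6 targets rose without wt replicate 1, and with the tumours averaged by title number 8 did.

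The oncofetal RNA-binding proteins Igf2bp1 and Igf2bp3, also let-7 targets, were low or undetected outside the double mutant tumours. Igf2bp3 read 6.59, 8.17 and 5.98 in LIN28B/Apcmin tumours, 4.59 and 4.58 in Apcmin tumours and 4.67 and 4.82 in wt mucosa. It rose against wt by 2.17 ± 0.64 (adjusted p = 0.0274), a call that was lost without tumour replicate 2 (adjusted p = 0.0722), without either wt array (0.143 and 0.115) and with title numbers averaged (0.0957). Igf2bp1 was detected on tumour replicates 1 and 2 at 8.27 and 5.03, its value on replicate 3 being lost, and on neither wt array. It was at least 3.84-fold higher over these 2 tumours, but did not pass (adjusted p = 0.0698), though it did with array weights (0.0308). Its difference ran from 0.52 to 3.78 with 1 array left out. The 0.52 rests on tumour replicate 2 alone and the 3.78 on tumour replicate 1 alone. Averaging by title number also leaves 1 tumour value, so that setting does not hold the spread between these tumours. Lin28a, the paralog of LIN28B, and Hmga2, an architectural chromatin protein, were not detected on any of the 14 readable arrays, and Lin28b and Igf2bp2 were not analysed here.

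Genes of DNA replication and ribosome production rose by small amounts. Of 24 tested proliferation genes 13 rose and 0 fell (median 0.91), and of 19 tested genes of ribosome biogenesis 12 rose and 0 fell (median 0.93). Over all genes 13.7% rose and 14.2% fell. Cdc6, a loader of the replicative helicase, read 7.27, 7.64 and 7.46 in tumours against 6.03 and 6.07 in wt (1.41 ± 0.28, adjusted p = 0.0042), and the helicase subunit Mcm4 rose by 1.19 ± 0.22 (adjusted p = 0.00273). Nhp2, a protein of the RNA-modifying H/ACA particles, rose by 1.60 ± 0.30 (adjusted p = 0.00282) and Nop56, of the C/D particles, by 1.40 ± 0.28 (adjusted p = 0.00404). In each list 3 genes passed without wt replicate 1, and without wt replicate 2, 3 and 6. With the tumours averaged by title number, also 3 of each did. Without tumour replicate 2, 5 of each passed, and without replicate 3 the ribosome count was 8.

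Genes of absorptive colonocytes fell widely in the tumours. Of 27 tested colonocyte genes 22 fell and 0 rose, with a median of -2.49, against 14.2% of all genes called lower. Aqp8, a water channel of surface colonocytes, read 5.50, 5.05 and 6.36 in LIN28B/Apcmin tumours against 12.08 and 12.03 in wt, an 85.8-fold fall (-6.42 ± 0.36, adjusted p = 2.81e-06). Car4, a membrane carbonic anhydrase, read 6.71, 6.32 and 7.01 against 12.84 and 12.88 in wt (-6.18 ± 0.90, adjusted p = 0.000654). Slc51a, a subunit of the basolateral bile acid exporter, was 47.9-fold lower (adjusted p = 1.52e-05) and was detected on 1 of the 3 tumour arrays. Mptx1, a pentraxin of colonocytes, read 5.26 and 5.27 in tumour replicates 1 and 2 against 12.24 and 12.75 in wt (-7.23 ± 0.24, adjusted p = 2.94e-07), the value of tumour replicate 3 being lost. In bulk samples fewer cells of a type and less RNA per cell cannot be told apart. Without wt replicate 2, 14 colonocyte genes fell and 0 rose, and without wt replicate 1, 15 fell.

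Enzymes that handle drugs, hormones and retinoids fell as well. Of 25 tested, 20 fell and 0 rose, with a median of -2.51, against 14.2% of all genes called lower. Cyp2c55, a cytochrome P450 of the colon, had the largest fall named here, with 7.00, 5.19 and 4.55 in tumours against 13.91 and 13.26 in wt, 257-fold (-8.01 ± 0.81, adjusted p = 7.56e-05). The sulfotransferases Sult1a1 and Sult1d1 were 55.9-fold and 42.2-fold lower, though a second Sult1d1 probe gave a log2 difference of -0.19. Aldh1a1, which makes retinoic acid, was 25.7-fold lower, with 5.73, 4.45 and 4.71 in tumours against 9.75 and 9.53 in wt (adjusted p = 7.59e-05). Tumour replicate 1 was the highest of the 3 tumours for Cyp2c55, Sult1a1 and Aldh1a1, yet lay far below both wt arrays in each. The selenium-binding proteins Selenbp1 and Selenbp2 were 39.3-fold and 40.2-fold lower (adjusted p = 1.51e-05 and 6.67e-06), and a probe of one of these close paralogs may also read the other. Cyp2c55, Sult1d1 and Selenbp2 were each detected on 2 of the 3 tumour arrays, so their differences rest in part on an undetected signal. Osr2, a zinc finger factor outside these lists, read 4.80, 5 and 4.27 in tumours against 10.55 and 11.11 in wt, and was detected on 2 of the 3 tumour arrays. Its standard error over all groups was wide (-6.14 ± 1.72, adjusted p = 0.0223), and the call was lost without either wt array, tumour replicate 2 or tumour replicate 3 (adjusted p up to 0.124).

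Of 19 tested genes of fatty acid oxidation and ketogenesis 11 fell and 0 rose (median -0.86, against 14.2% of all genes called lower), among them Acads, which opens the oxidation of short-chain fatty acids, by 1.34 ± 0.24 (adjusted p = 0.00252), and Slc25a20, the carnitine carrier, by 1.58 ± 0.29 (adjusted p = 0.00272). Of 28 tested subunits of oxidative phosphorylation 8 fell and 0 rose (median -0.34), among them Sdhb of complex II (-0.94 ± 0.19, adjusted p = 0.00451), for which other probes gave 0.03 and -0.76. Of 14 glycolysis genes 4 rose and 2 fell (median 0.14), and without either wt array 1 rose and 2 fell. The falls in fatty acid oxidation numbered 5 without either wt array or tumour replicate 2. Those in oxidative phosphorylation numbered 3 and 2 without wt replicate 1 or 2, and 5 without tumour replicate 1 or 3. With the tumours averaged by title number the falls were 5 in fatty acid oxidation and 1 in oxidative phosphorylation.

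Goblet cell genes fell widely and, in part, further than in Apcmin tumours. Of 17 tested 15 fell and 0 rose, with a median of -2.03, against 14.2% of all genes called lower. Clca1, a protein of the mucus layer, read 8.56, 7.78 and 9.15 in LIN28B/Apcmin tumours, 12.53 and 12.00 in Apcmin tumours and 14.47 and 14.66 in wt mucosa (-6.07 ± 0.61 against wt, adjusted p = 7.56e-05). The 3 groups did not overlap, though the rule that named Clca1 required this between LIN28B/Apcmin tumours and wt. Retnlb, an antibacterial protein secreted by goblet cells, was 46.8-fold lower than in wt (adjusted p = 0.00429), a call that was lost with the tumours averaged by title number. Zg16, a lectin that keeps bacteria off the epithelium, read 12.07, 12.34 and 12.70 in LIN28B/Apcmin tumours, against 14.24 and 14.02 in Apcmin tumours and 14.43 and 14.47 in wt. Klk1, a tissue kallikrein, and Rep15, a trafficking protein of goblet cells, were 12.5-fold and 8.2-fold lower than in wt (adjusted p = 0.000345 and 7.98e-05). Spdef, a factor of goblet cell maturation, fell by 2.26 ± 0.36 (adjusted p = 0.00117). The goblet cell falls numbered 10 without wt replicate 1.

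Between the tumour genotypes directly, 6 of the 17 goblet cell genes were lower in LIN28B/Apcmin than in Apcmin tumours, against 0.677% of all genes. These were Clca1 (-3.77, adjusted p = 0.0209), Klk1 (-2.47, adjusted p = 0.0365), Rep15 (-2.27, adjusted p = 0.0116), St6galnac6, a sialyltransferase (-1.82, adjusted p = 0.0287), Zg16 (-1.76, adjusted p = 0.00626) and Tff3, a trefoil peptide (-1.25, adjusted p = 0.0237). Without either Apcmin array 0 goblet cell genes passed, and without LIN28B/Apcmin replicate 2, 2 did. Over all genes this test called 132, but 20 without Apcmin replicate 1, 5 without Apcmin replicate 2 and 54 without LIN28B/Apcmin replicate 2. Among colonocyte genes 5 of 27 were lower, including Mptx1 over LIN28B/Apcmin replicates 1 and 2 (-4.39, adjusted p = 8.03e-05) and Tgm3, an epithelial transglutaminase (-2.45, adjusted p = 0.000357), and 3 or 2 were without Apcmin replicate 1 or 2. Sycn, a zymogen granule protein known from the pancreas, read 5.53, 5.75 and 6.57 in LIN28B/Apcmin tumours, 9.73 and 11.27 in Apcmin tumours and 13.39 and 13.08 in wt mucosa. It differed by -7.28 ± 0.46 from wt (adjusted p = 6.03e-06) and by -4.55 from Apcmin tumours (adjusted p = 0.00183). Scin, an actin-severing protein, read 6.59, 6.79 and 7.32 in LIN28B/Apcmin tumours, 10.17 and 9.96 in Apcmin tumours and 12.15 and 12.26 in wt. In Sycn and Scin the 3 groups did not overlap, which the rule that named them required between LIN28B/Apcmin tumours and wt. Of 10263 genes, 9.45% had all LIN28B/Apcmin tumours below the 4 Apcmin and wt samples.

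**Figure D3:**
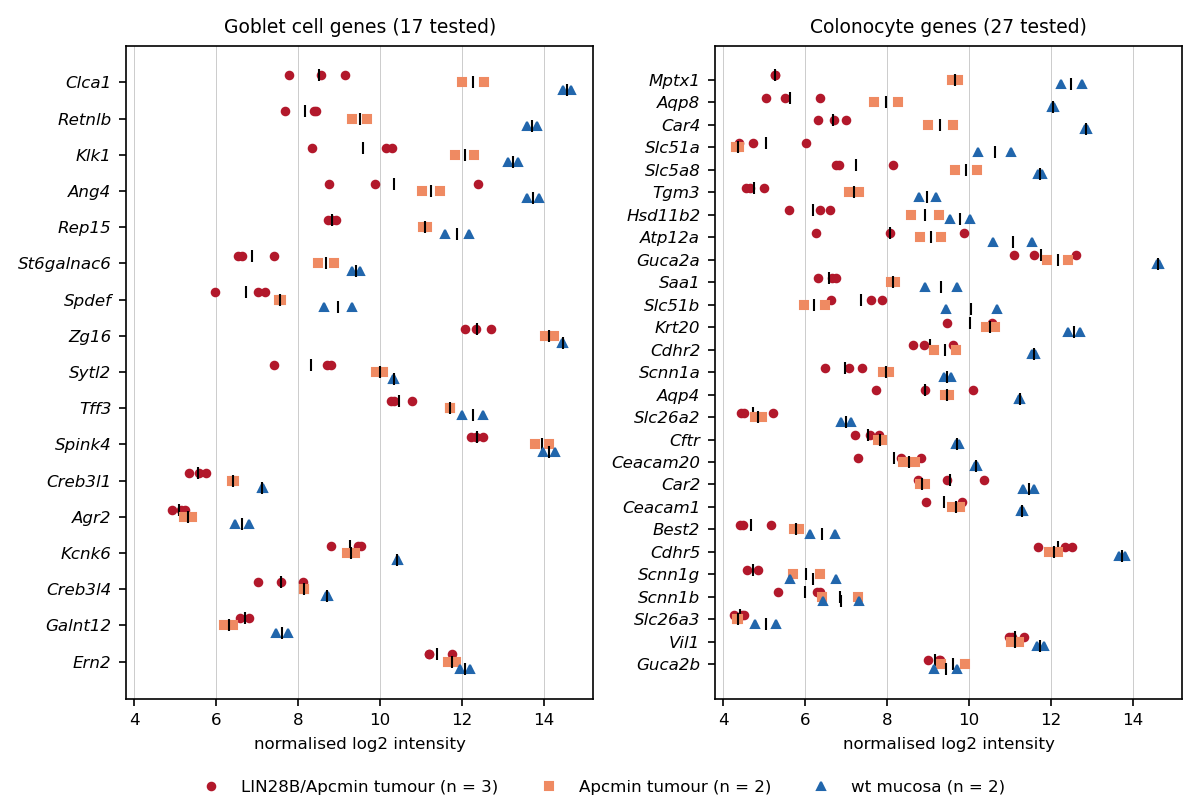
Normalised log2 intensity (horizontal axis) of the 17 tested goblet cell genes and the 27 tested colonocyte genes, with circles for LIN28B/Apcmin tumours (n = 3), squares for Apcmin tumours (n = 2), triangles for wt mucosae (n = 2) and black ticks for group means. Clca1 lies between 7.78 and 9.15 in LIN28B/Apcmin tumours, at 12.53 and 12.00 in Apcmin tumours and at 14.47 and 14.66 in wt mucosa.

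Hormone genes of enteroendocrine cells fell. Of 23 tested genes 14 fell and 1 rose, with a median of -1.96, against 14.2% and 13.7% of all genes. Gcg, which encodes the glucagon-like peptides, read 4.60, 4.98 and 5.27 in tumours against 10.53 and 10.49 in wt, 47.2-fold lower (-5.56 ± 0.46, adjusted p = 2.28e-05). It was detected on 2 of the 3 tumour arrays. Sst, which encodes somatostatin, was detected on 0 of 3 tumour arrays and both wt arrays, at least 17.5-fold lower (adjusted p = 7.43e-05). Insl5, a hormone of colonic L cells, read 4.39, 5.82 and 6.30 in LIN28B/Apcmin tumours, 9.21 and 8.50 in Apcmin tumours and 9.86 and 11 in wt mucosa, and was lower than in Apcmin tumours too (-3.35, adjusted p = 0.0163). Pyy, which encodes peptide YY, was lowest in tumour replicate 1 at 5.68, with 9.49 and 9.44 in the other tumours against 11.15 and 11.85 in wt (adjusted p = 0.0203, but 0.136 without 1 wt array). The exception was Isl1, a transcription factor of endocrine progenitors, which rose by 2.73 ± 0.64 (adjusted p = 0.00991, but up to 0.0743 without 1 wt array). The falls numbered 12 and 11 without wt replicate 1 or 2.

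Genes of Paneth cells, normally a cell type of the small intestine, rose in part. Defa20, an alpha-defensin, had the largest rise by the probe used, with 11.53, 12.99 and 13.21 in LIN28B/Apcmin tumours against 5.12 and 4.59 in wt, 211-fold (7.72 ± 0.52, adjusted p = 6.67e-06). The probe used was detected on 1 of the 2 wt arrays, and a second Defa20 probe gave 3.88. Defensin transcripts are near copies of each other, so a probe may read several of them. Mmp7, the protease that activates defensins, was detected on all tumour arrays at 8.77, 8.41 and 9.08 and on neither wt array, at least 16.5-fold higher (adjusted p = 0.000219). Lyz1, the Paneth cell lysozyme, read 14.47, 13.41 and 13.69 in tumours against 12.51 and 12.23 in wt (1.49 ± 0.29, adjusted p = 0.0037, but -0.88 with all 16 arrays), while its other probes gave 5.39 and 5.26, so the size of its rise is uncertain. Of 9 tested genes 5 rose and 1 fell, against 13.7% and 14.2% of all genes. The fall was Ang4, an angiogenin also listed under goblet cells, with 12.38, 8.76 and 9.87 against 13.58 and 13.87 in wt. The call of Ang4 (adjusted p = 0.0159) was lost without either wt array, at up to 0.099. Apcmin tumours had Defa20 at 12.84 and 12.63, and the tumour genotypes did not differ by the test (-0.16, adjusted p = 0.95). Tuft cell genes gave 2 rises and 4 falls among 14 tested (13.7% and 14.2% of all genes), the rises being close to that share. Avil, an actin regulator, was up 10.7-fold, and the kinase Dclk1 was undetected on all tumour arrays and at least 3.52-fold lower. Without either wt array 1 tuft cell gene rose and 2 fell, as without tumour replicate 2.

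Inflammatory genes rose strongly. The neutrophil proteins S100a8 and S100a9, which together bind calcium and zinc, read 12.86, 12.22 and 12.03 and 11.25, 11.48 and 11.34 in LIN28B/Apcmin tumours, against 5.93 and 4.53 and 5.42 and 4.26 in wt mucosa (7.14 ± 0.57 and 6.51 ± 0.54, adjusted p = 1.87e-05 and 2.21e-05). Cxcl1, a neutrophil chemokine, was 94.2-fold higher, and Il1b, which encodes interleukin 1 beta, 30.8-fold higher, with 10.37, 10.68 and 11.37 in tumours against 6.39 and 5.34 in wt (adjusted p = 1.51e-05). S100a8, S100a9 and Cxcl1 were each detected on 1 of the 2 wt arrays, so their differences rest in part on an undetected signal. Of 27 tested myeloid genes 19 rose and 1 fell (median 1.73), against 13.7% and 14.2% of all genes. Their summed linear level was 18600 to 22700 in tumours and 2410 to 2420 in wt. In Apcmin tumours S100a8 read 12.01 and 11.25. Lcn2, an iron-withholding protein of epithelia and neutrophils, read 12.97, 13.44 and 13.17 against 6.37 and 5.86 in wt, 135-fold (7.08 ± 0.74, adjusted p = 9.28e-05). Hdc, which makes histamine, varied from 9.67 to 12.77 over the tumours against 5.56 and 5.53 in wt (5.93 ± 0.67, adjusted p = 0.000139). The matrix proteases Mmp10 and Mmp13 were 42.6-fold and 16.1-fold higher (adjusted p = 3.05e-05 and 0.000133), though other Mmp13 probes gave log2 differences of 0.18 and 1.74. The myeloid rises numbered 13 without wt replicate 1.

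Genes of antigen presentation by MHC class II fell. Of 10 tested 5 fell and 0 rose, with a median of -1.83, against 14.2% of all genes called lower. H2-DMb1, a chain of the peptide exchanger, read 6.92, 7.60 and 7.61 in tumours against 9.45 and 9.49 in wt (-2.09 ± 0.45, adjusted p = 0.00616), and passed with any 1 array left out. Ciita, the master regulator of the pathway, fell by 1.86 ± 0.47 (adjusted p = 0.0147, but up to 0.0969 without 1 wt array), and without either wt array 1 gene of the list passed, without tumour replicate 1, 2, and without tumour replicate 2, 3. With the tumours averaged by title number 1 did as well.

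Interferon response genes, which cells switch on against viruses, rose in LIN28B/Apcmin tumours. Of 26 tested 13 rose against wt and 0 fell, with a median of 1.22, against 13.7% of all genes. Ifit2, an antiviral RNA-binding protein, read 10.69, 9.92 and 10.72 in LIN28B/Apcmin tumours, 7.73 and 7.34 in Apcmin tumours and 7.49 and 7.08 in wt mucosa, 8.97-fold above wt (3.17 ± 0.62, adjusted p = 0.00383). Ifit3, of the same family, read 10.30, 10.49 and 11.10 in LIN28B/Apcmin tumours, 7.99 and 7.51 in Apcmin tumours and 7.97 and 8.32 in wt (2.49 ± 0.46 against wt, adjusted p = 0.00283). Mx2, a dynamin-like antiviral GTPase, read 6.94, 7.36 and 7.71, against 4.89 and 4.71 in Apcmin tumours and 4.94 and 5.13 in wt (2.30 ± 0.31, adjusted p = 0.000366). In these 3 genes the LIN28B/Apcmin tumours lay above all 4 other colon samples, as they did for 9.92% of 10263 genes (9.45% lay below all 4). Usp18, which removes a ubiquitin-like modifier from proteins, rose 5.12-fold against wt (adjusted p = 0.00603, but 0.0608 without wt replicate 1 and 0.0643 with the tumours averaged).

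The direct test between tumour genotypes gave 11 of 26 interferon response genes as higher with LIN28B than in Apcmin tumours and 0 as lower (median 2.06), against 0.499% of all genes. Among them were Rsad2, the antiviral enzyme viperin (3.50, adjusted p = 0.0172), Ifit3 (2.88, adjusted p = 0.0209) and Mx2 (2.54, adjusted p = 0.00626). For Rsad2 the wt mucosa was intermediate, with 11.08, 10.41 and 11.48 in LIN28B/Apcmin tumours, 7.87 and 7.10 in Apcmin tumours and 9.02 and 9.13 in wt, from which it differed by 1.91 ± 0.53 (adjusted p = 0.0208, but up to 0.116 without 1 array). Irf7, an interferon-inducible factor, read 8.11, 8.52 and 8.90 in LIN28B/Apcmin tumours, 6.30 and 6.08 in Apcmin tumours and 8.70 and 8.35 in wt, which left it -0.02 from wt (adjusted p = 0.98) and 2.32 above Apcmin tumours (adjusted p = 0.0264). Of 19 tested interferon GTPases and antigen processing genes, 1 rose and 1 fell against wt (13.7% and 14.2% of all genes). Both counts of the interferon response depend on single arrays: against wt, 3 rose without wt replicate 1, 6 without wt replicate 2 and 8 without tumour replicate 3, and against Apcmin tumours 1 rose without Apcmin replicate 1 and 0 without Apcmin replicate 2. Against Apcmin tumours 2 rose without LIN28B/Apcmin replicate 2 and 5 without replicate 3. With the LIN28B/Apcmin tumours averaged by title number the counts were 8 against wt and 1 against Apcmin tumours.

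Interferon-responsive promoters often carry the repeat GAAANNGAAA, where N is any base. A RefSeq window (GRCm38.p6) was at hand for 17 of the 26 tested genes, and 11 of them held the repeat on either strand in any window. Of all 32851 windows 3.44% held it, a share by window and not by gene, so it is not the same measure. Of the 7 genes with a window that rose against wt, 4 held the repeat: Ifit3, Rsad2, Ddx58 and Oas1a. The calls of Rsad2, Ddx58 and Oas1a were lost without either wt array, and those of Rsad2 and Oas1a also without tumour replicate 3. The window of Ifit3 lies at chr19:34583279-34583578 on the plus strand and that of Rsad2 at chr12:26456403-26456702 on the minus strand, both written in the direction of the gene. They are shown because these genes differ from both other groups of samples, and the matches, here read on the opposite strand, are in capitals.
Ifit3 promoter: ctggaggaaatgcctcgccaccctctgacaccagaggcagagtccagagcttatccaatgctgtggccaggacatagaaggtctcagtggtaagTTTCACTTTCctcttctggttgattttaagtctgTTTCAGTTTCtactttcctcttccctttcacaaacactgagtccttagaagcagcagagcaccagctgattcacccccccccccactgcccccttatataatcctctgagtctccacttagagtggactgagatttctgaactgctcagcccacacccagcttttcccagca
Rsad2 promoter: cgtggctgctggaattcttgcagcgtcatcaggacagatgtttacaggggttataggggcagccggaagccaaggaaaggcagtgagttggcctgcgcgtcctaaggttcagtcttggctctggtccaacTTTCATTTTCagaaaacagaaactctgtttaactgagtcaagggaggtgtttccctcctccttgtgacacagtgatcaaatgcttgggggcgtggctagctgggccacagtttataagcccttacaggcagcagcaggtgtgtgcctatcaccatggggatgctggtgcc
No binding was measured here, and a window without the repeat says only that these letters are absent from it.

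**Figure D4:**
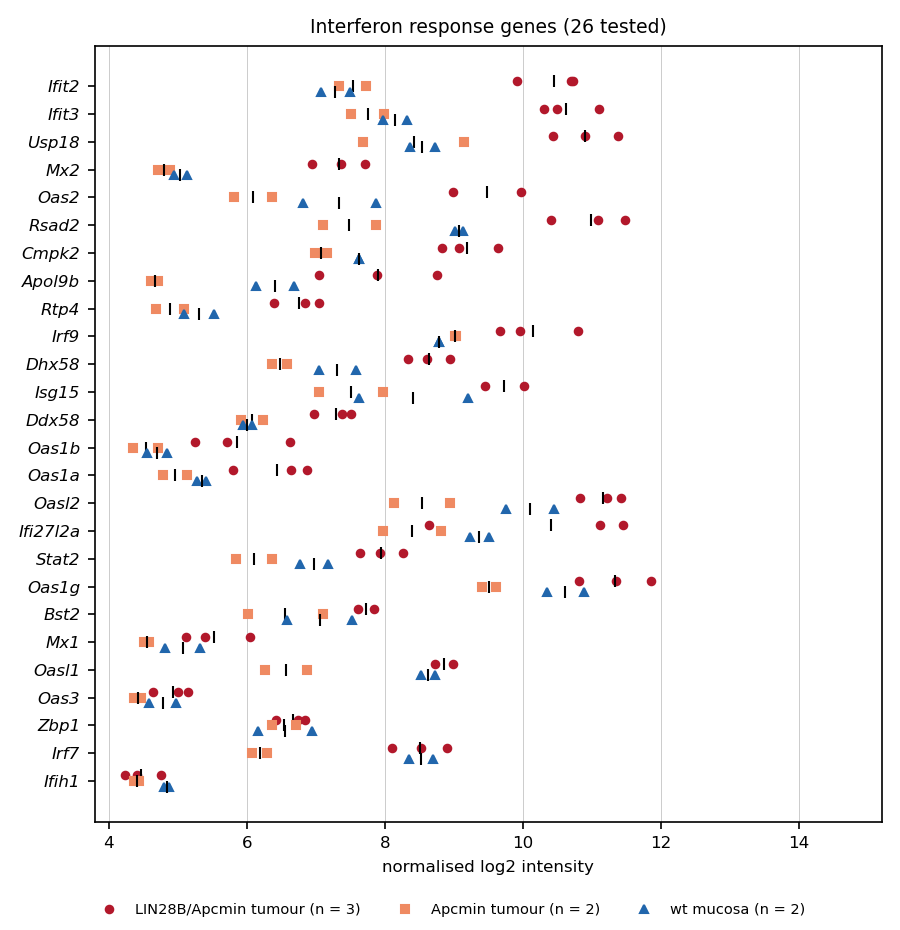
Normalised log2 intensity (horizontal axis) of the 26 tested interferon response genes, ordered by the difference between LIN28B/Apcmin tumours and wt, with circles for LIN28B/Apcmin tumours (n = 3), squares for Apcmin tumours (n = 2), triangles for wt mucosae (n = 2) and black ticks for group means. In Ifit2, Ifit3 and Mx2 at the top, the LIN28B/Apcmin tumours lie above all other samples, while Irf7 near the bottom is close to wt and above Apcmin tumours.

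Of 19 tested acute phase and antimicrobial genes 9 rose and 4 fell (median 0.89): Reg3g, a bactericidal lectin, read 9.41, 11.09 and 11.30 in tumours against 5.66 and 6.10 in wt (4.72 ± 0.77, adjusted p = 0.00127), and Wfdc18, a whey acidic protein, was 54.6-fold higher (adjusted p = 6.03e-06). Outside the lists, Lrg1, a secreted glycoprotein, and Atg9b, an autophagy protein, were 41.3-fold and 40.0-fold higher (adjusted p = 0.000406 and 0.000428). Without either wt array 6 of these rose. Of 22 genes of invasion and proteolysis 10 rose and 2 fell (median 0.85), and of 15 genes of fetal and regenerating epithelium 7 rose and 0 fell (median 1.19), the last being 4 and 3 without wt replicate 1 or 2. Clu, which encodes clusterin and belongs to the last list, read 10.98, 11.05 and 11.60 in LIN28B/Apcmin tumours, 12.52 and 12.85 in Apcmin tumours and 8.41 and 8.66 in wt mucosa, lower than in Apcmin tumours by the direct test (-1.48, adjusted p = 0.0276). The exocrine pancreas list counted next holds Zg16, also counted as a goblet cell gene, and Sycn, which was high in wt mucosa. Its enzymes Cpa1, Cpb1, Cel and Prss2 were each detected on 1 array and not tested. Against 13.7% of all genes higher and 14.2% lower, immediate early and heat shock genes gave 6 rises and 0 falls of 21, claudin and junction genes 3 and 2 of 17, Notch and secretory fate genes 3 and 3 of 15, gastric genes 1 and 0 of 14, small intestinal enterocyte genes 0 and 4 of 14 and exocrine pancreas genes 1 and 4 of 7. Without wt replicate 2 these 6 counts were 2 and 0, 1 and 1, 2 and 1, 0 and 0, 0 and 2, and 1 and 4.

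Growth factor and imprinted genes were mixed. Dlk1, an imprinted Notch ligand-like protein, read 8.18, 6.57 and 7.81 in tumours against 5.39 and 4.76 in wt (2.44 ± 0.38, adjusted p = 0.00101), and Cdkn1c, an imprinted inhibitor of cell division, rose 4.96-fold (adjusted p = 0.000732). Ndn, which encodes necdin, fell 12.4-fold, with 5.18, 5.15 and 5.64 against 8.88 and 9.04 in wt (adjusted p = 2.91e-05). Igf2, the fetal growth factor, differed by 0.19 (adjusted p = 0.802), with 8.77, 8.90 and 8.55 in tumours and 8.73 and 8.37 in wt. Of 17 tested 4 rose and 3 fell, against 13.7% and 14.2% of all genes.

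Smooth muscle genes fell in 16 of 17 tested cases (median -3.37): Myh11, the smooth muscle myosin, read 6.26, 6.52 and 6.31 in tumours against 11.95 and 11.87 in wt (adjusted p = 0.000563), and Des, which encodes desmin, was 34.2-fold lower (adjusted p = 2.94e-05). Their summed linear level was 12900 to 16400 in tumours and 71800 to 74800 in wt, and 0 of the 17 were undetected on all 5 arrays. Red blood cell genes rose in 4 of 5 tested cases, with a summed level of 10600 to 21800 in tumours and 522 to 1490 in wt. Without wt replicate 1 or 2, 12 smooth muscle genes fell. Fibroblast and matrix genes gave 6 rises and 4 falls of 21 (4 and 1 without wt replicate 1, 2 and 1 without wt replicate 2, against 13.7% and 14.2% of all genes), and T cell genes 1 rise and 2 falls of 17, the T cell counts being 2 and 1 without tumour replicate 1 and 1 and 1 without tumour replicate 3 or either wt array, with sums of 1000 to 1230 in tumours and 1360 to 1570 in wt. B and plasma cell genes gave 2 falls of 12, and 1 without wt replicate 2, with sums of 3870 to 4500 in tumours and 5460 to 6720 in wt. Among adipocyte genes 3 of 8 fell, with sums of 786 to 1340 against 1960 to 2930. The part of muscle, blood and myeloid RNA in the changes of the epithelial genes above was not tested.

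**Figure D5:**
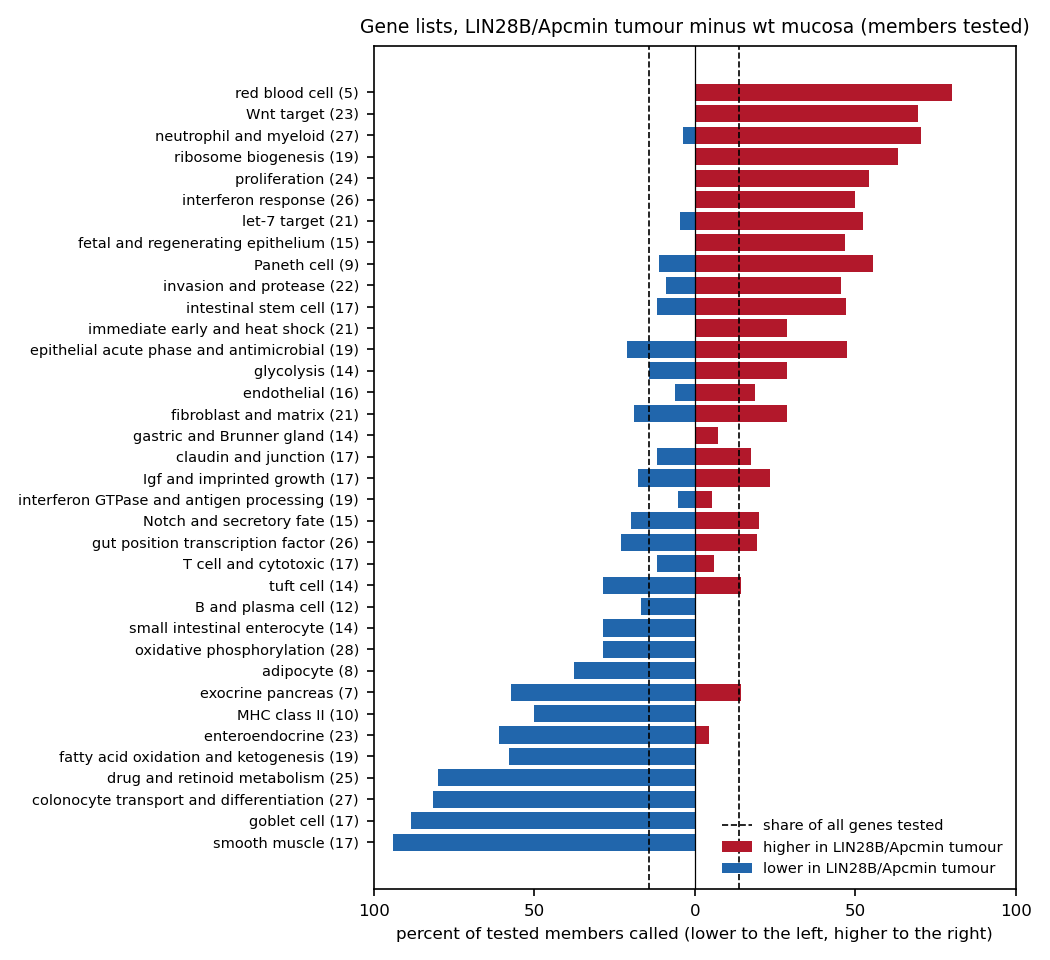
Percent of the tested members of each of 36 gene lists that were called higher (right) or lower (left) in LIN28B/Apcmin tumour than in wt mucosa, with the number tested in brackets. Dashed lines mark the shares of all genes, 13.7% higher and 14.2% lower, which the Wnt target, myeloid and interferon response lists pass on the right and the smooth muscle, goblet cell and colonocyte lists on the left.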

How the data were processed

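RNA was measured on 1 single-colour Illumina bead array a sample. Per the file headers, the deposited table gives for each probe a mean signal (intensity, not normalised) and a detection p-value. The authors' processed values of the same arrays, log2 transformed, served as an alternative. The analysis used R 4.3.3, limma 3.58.1, Python 3.11 and matplotlib 3.10.9. Of 25697 probes, 23978 had 1 gene. Arrays with under 20% of probes detected (2 of 16) were left out and signals under 25 set to missing. Background was corrected by normexp with an offset of 16 from the detection p-values, followed by log2 and quantile normalisation. Genes were kept with a detection p-value under 0.05 on at least 2 arrays, 1 probe a gene. A linear model with 7 group means (7 residual degrees of freedom) was fitted with moderated variance and Benjamini-Hochberg adjustment at 0.05. The number of arrays limits the precision.

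The members and the 36 gene lists were chosen with earlier results of these data known. Lists share some genes: their 645 tested members are 620 distinct genes. Named genes were the 15 largest rises and 15 largest falls with complete, non-overlapping values, the called list members with the largest differences (about 6 a list), and genes of the LIN28B and let-7 pathway; other list members were chosen after their values were seen. A gene undetected on all arrays of a group has a bound, taken against the lowest detected signals. The promoter and microRNA sequences come from RefSeq. Alternatives covered the arrays, background, normalisation, filter, probe choice, blocks and each array left out.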

Additional observations from a re-analysis of the deposited data

Results flagged for a closer look

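LIN28B/Apcmin colon tumour replicate 4, left out above because 12% of its probes were detected, carries another title number than the other 3 and shows signal outside the main measurement. Of 1534 genes called higher in LIN28B/Apcmin tumours, 343 were readable on its array, and 295 of these (86%) lay above both wt mucosae and 41 below both. Of 1594 called lower, 317 were readable, with 281 (88.6%) below both wt mucosae and 25 above both. Among 1535 readable genes that were not called, 54.8% lay above both and 36% below both. The array is set against the same 2 wt mucosae as the calls, so these shares are not independent of them. On this array 20238 of 25697 probes read under 25 and were set to missing. Quantile normalisation spread the remaining signals over the full range, so a readable gene can be placed too low. The part of this in the shares was not tested.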

How the results depend on the processing

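The comparison with wt called 3128 genes, and 1356 to 2918 with 1 array left out, the lowest counts being without a wt array. It called 1489 with the tumours averaged by title number and 85 (11 higher and 74 lower) with all 16 arrays and signals under 25 kept, an alternative chosen after seeing the data. The split of 1534 higher and 1594 lower became 1004 and 1819 under median scaling and 1179 and 1594 with the authors' processed values. Apcmin tumours against wt gave 1630 calls, 584 to 707 with 1 array left out, 3757 in a fit of those arrays only, 4036 with array weights and 0 (358 at an unadjusted p under 0.05, limma) with all 16 arrays and low signals kept. LIN28B/Apcmin against Apcmin tumours gave 132 calls, 5 to 123 with 1 array left out, 85 with all 16 arrays, 23 with signals under 25 kept, 77 in a fit of those arrays only, 241 from the 7 colon arrays, 27 with title numbers averaged, 328 with array weights and 0 (176 unadjusted, limma) with all 16 arrays and low signals kept. Of 96 called genes named in the text, 77 passed with any 1 array left out, 82 passed with title numbers averaged and 93 held their direction under every alternative run. The 14 calls lost with title numbers averaged were those of Arid3b, Ccnd1, Cdx1, Ciita, Ddx58, Hnf4a, Igf2bp3, Lef1, Lgr5, Nop56, Osr2, Retnlb, Rsad2 and Usp18. The exceptions in direction were Lyz1 at -0.88 and Plagl2 at -0.47 with all 16 arrays, and E2f6 at -0.14 with all 16 arrays and low signals kept. With all 16 arrays and low signals set to missing, most signals of LIN28B/Apcmin colon replicate 4 were lost. Quantile normalisation then spread its remaining signals over the full range. The labels do not say that replicate numbers pair the samples, and the tumours and mucosae carry different title numbers. Deviations of same-numbered arrays from their group means correlated at 0.102 and 0.069. These values cannot decide on pairing, because the deviations of 2 wt arrays mirror each other. With a replicate block the counts were 3001, 2028 and 103. The cause of these shifts was not tested.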
